A study of Mus musculus with 6 samples.

Results

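Collagen genes were examined in the IWAT (inguinal white adipose tissue, a subcutaneous fat depot) of mice that carry 1 copy of an *Ebf2* allele with the nonsense variant E165X. They were taken as every entry of the authors' gene table whose symbol is Col, a number, a, and a number, with at least 10 counts summed over the libraries. All 44 entries with such a symbol met this limit, out of 55491 genes in the table. They were divided into 11 fibrillar chains, 6 basement membrane chains of type IV, and 27 chains of other types.

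The libraries came from 3 male *Ebf2*+/+ and 3 male *Ebf2* E165X/+ mice on the C57BL/6J background, all 4 weeks of age, with 1 library per mouse. The E165X allele was knocked in by CRISPR/Cas9 in the germline, so every cell of the heterozygous mice carried it beside a wild-type allele, and no mice with 2 mutant alleles were among these libraries. Founders were made in hybrid zygotes and then bred to C57BL/6J. The tissue was whole IWAT and was not sorted. Thus a lower count can mean fewer cells of a type or less RNA per cell, which cannot be told apart here. *Ebf2* encodes a transcription factor of mesenchymal and adipocyte precursor cells, and the comparison asked whether the collagen program of young fat differs when 1 copy is truncated.

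Collagens are proteins of 3 chains wound into a triple helix. Fibrillar collagens form the thick fibers that give tissue its tensile strength, type IV collagen forms the sheet-like basement membrane that surrounds each adipocyte and vessel, and type VI collagen forms beaded filaments between these layers. In adipose tissue, fibroblasts and adipocyte progenitors are major sources of fibrillar collagen, adipocytes and endothelial cells are lined by type IV collagen, and excess fibrillar collagen is the hallmark of fibrosis.

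*Ebf2* itself served as a partial check on the labels. With allele-specific probes, the paper found the wild-type and variant transcripts at equal levels in heterozygous IWAT. The counts here do not separate the alleles, and why the total differed was not tested. The *Ebf2* level was 38.3, 41.3, and 37.2 CPM (the read count scaled to a common library size after edgeR's TMM correction) in *Ebf2*+/+ mice 1, 2, and 3. It was 22.8, 22.9, and 21.1 CPM in *Ebf2* E165X/+ mice 1, 2, and 3. Every heterozygous mouse lay below every wild-type mouse. The log2 fold change was −0.81 (SE 0.076, n = 3 mice per genotype), with an adjusted *P* of 0.0596 by edgeR's quasi-likelihood test and 1.23e-13 by DESeq2.

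Total counts per library were 124927686, 106820505, and 123853070 in *Ebf2*+/+ mice and 110850284, 117413441, and 135039488 in *Ebf2* E165X/+ mice. Each of the 44 collagen genes had a count in every library, and 41 of them had at least 10 counts in every library. The counting error expected from a gene's mean count had a median of 2.79% over the 44 genes, the spread among mice of a genotype had a median of 17.1%, and the counting error was the smaller of the pair for 43 genes, all but *Col9a2*. *Ebf2* E165X/+ mouse 3 stood apart from the other mice by its skeletal muscle RNA. A list of 8 skeletal muscle markers took 3.66% of its counts, compared with 0.0701% to 0.672% in the other mice, with *Myh4*, a fast myosin heavy chain, the most abundant of the list.

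The genomic sequences near the start sites of 5 collagen loci are shown. *Col3a1* and *Col1a2* are abundant fibrillar chains, *Col23a1* was apart between the genotypes, *Col17a1* varied widely among mice, and *Col4a4* and *Col4a3* share a start region. No window of *Col1a1* was used here. The windows were taken from RefSeq for build GRCm38.p6 and show the longest stretch before the start site that lies in no annotated exon, read 5′ to 3′ on the strand of the gene. Capitals mark CCCNNGGG, the palindromic core of sites bound by EBF factors, which reads the same on both strands.
*Col3a1* (chr1:45311288-45311537, plus strand): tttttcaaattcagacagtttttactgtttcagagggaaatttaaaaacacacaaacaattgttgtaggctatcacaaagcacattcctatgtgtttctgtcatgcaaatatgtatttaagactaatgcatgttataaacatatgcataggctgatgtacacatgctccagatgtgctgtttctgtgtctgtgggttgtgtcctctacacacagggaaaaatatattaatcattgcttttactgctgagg
*Col1a2* (chr6:4505370-4505492, plus strand): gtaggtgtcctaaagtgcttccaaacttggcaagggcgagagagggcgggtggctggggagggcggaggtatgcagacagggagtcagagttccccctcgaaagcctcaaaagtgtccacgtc
*Col23a1* (chr11:51289670-51289919, plus strand): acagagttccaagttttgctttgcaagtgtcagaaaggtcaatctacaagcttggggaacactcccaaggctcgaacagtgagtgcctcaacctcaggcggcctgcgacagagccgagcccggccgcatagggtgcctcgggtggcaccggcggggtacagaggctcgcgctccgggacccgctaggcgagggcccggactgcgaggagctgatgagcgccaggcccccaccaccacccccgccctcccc
*Col17a1* (chr19:47692095-47692292, minus strand): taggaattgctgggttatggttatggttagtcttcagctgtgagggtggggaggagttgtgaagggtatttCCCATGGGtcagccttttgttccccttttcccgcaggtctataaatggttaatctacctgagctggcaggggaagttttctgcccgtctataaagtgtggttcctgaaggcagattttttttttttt
*Col4a4* to *Col4a3* (chr1:82586850-82586920, between the starts of both genes, plus strand): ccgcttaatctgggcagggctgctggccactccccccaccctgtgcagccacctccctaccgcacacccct

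RefSeq windows of 300 bases, 250 before and 50 after the start site, were at hand for 35 of the 44 collagen genes. The core CCCNNGGG was found in 8 of these 35 (22.9%), namely *Col11a2*, *Col17a1*, *Col23a1*, *Col4a2*, *Col6a4*, *Col6a5*, *Col6a6*, and *Col9a2*, compared with 15.4% of 27025 genes with a window. In *Col23a1* the match lay outside the bases shown. The longer form TCCCNNGGGA, also a palindrome and a part of the matches to the core, was found in 0 of the 35 windows and in 1.06% of all genes. A match is a description of the letters, and the binding of EBF2 was not measured in these libraries.

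The collagen genes lay on 15 chromosomes, and 0 of them lay on chromosome 14, which carries *Ebf2*. The type IV genes are arranged in head-to-head pairs. In the GENCODE M21 annotation of GRCm38, *Col4a1* (chr8:11198423-11312826, minus strand) and *Col4a2* (chr8:11312805-11449287, plus strand) share 22 bases at their starts, where reads of the pair could not be told apart without strand. *Col4a4* and *Col4a3* on chromosome 1 start 71 bases apart, and *Col4a6* and *Col4a5* on chromosome X start 1308 bases apart. The fibrillar genes *Col3a1* (chr1:45311538-45349706, plus strand) and *Col5a2* (chr1:45374321-45503282, minus strand) are neighbors.

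Collagen was an abundant product of this tissue in both genotypes. The 44 genes took 2.91%, 2.19%, and 2.76% of all counts in *Ebf2*+/+ mice 1, 2, and 3 and 2.98%, 2.85%, and 2.52% in *Ebf2* E165X/+ mice 1, 2, and 3. The genotypes overlapped, and *Ebf2*+/+ mouse 2 had the lowest share. The means were 2.62% ± 0.378 (SD, n = 3) and 2.78% ± 0.239 (SD, n = 3), a difference of 0.16 percentage points that is smaller than the spread among mice and that was −0.054 without *Ebf2*+/+ mouse 2. *Col3a1*, *Col1a1*, and *Col1a2* alone held 66.6% to 73.6% of a library's collagen counts, and the top 10 members held 93.9% to 94.7%.

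0 of the 44 collagen genes passed the test for a difference between the genotypes. With edgeR's adjusted *P* below 0.05 and more than a 1.5-fold change required, 0.00612% of the 32664 genes tested were called higher and 0.00306% lower in *Ebf2* E165X/+ mice, which is 2 genes and 1 gene. By DESeq2, 1.18% of 16078 genes with an adjusted *P* had one under 0.05, again with 0 collagen genes. The smallest adjusted *P* of a collagen gene was 0.783 with edgeR, a value that many members shared, and 0.287 with DESeq2, for *Col8a2*. At an unadjusted *P* under 0.05, edgeR gave 2 collagen genes higher (4.55% of the members, against 1.68% of all genes) and 0 lower (against 3.09% of all genes). The 2 genes were *Col8a2* and *Col23a1*. DESeq2 gave 3 collagen genes higher and 0 lower at that limit, against 525 higher and 1058 lower among all 32664 genes tested. The edgeR count of higher genes was 0 without *Ebf2*+/+ mouse 2 or mouse 3 and 6 without *Ebf2* E165X/+ mouse 1 (beside 1.12%, 2.01%, and 1.89% of all genes in these 3 fits).

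Levels of 3 collagen genes did not overlap between the genotypes, all higher in *Ebf2* E165X/+ mice (6.82% of the members), namely *Col23a1*, *Col9a2*, and *Col9a3*. Among 26057 genes with at least 10 counts summed over the libraries, 6.08% were higher and 6.58% lower without overlap, so the share of members that lay higher was near that of genes at large. A log2 fold change above 0 was seen for 28 of the 44 members (63.6%), compared with 52.1% of all genes tested. The median was 0.09 over the members and 0.01 over all genes tested. Without *Ebf2*+/+ mouse 2, 21 of the 44 lay above 0 and the median was −0.03. The SE of a log2 fold change had a median of 0.2 over the members, and a fold change of 1.5 is 0.58 on that scale.

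**Figure D1:**
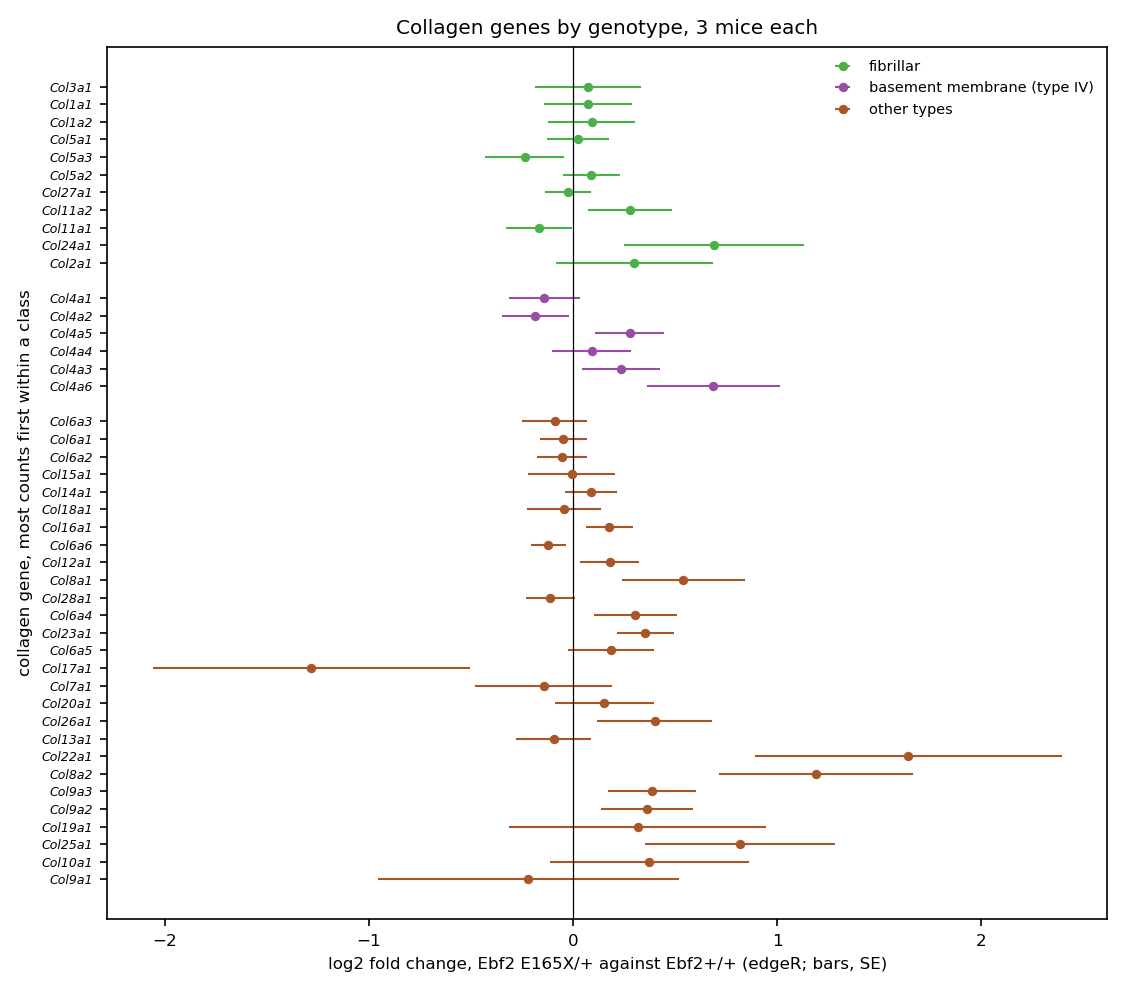
Log2 fold change of each of the 44 collagen genes in *Ebf2* E165X/+ against *Ebf2*+/+ mice (x axis; points, edgeR estimates; bars, SE; 3 mice per genotype), with genes sorted by counts within the fibrillar, type IV, and other classes. The abundant chains at the top of each class lie close to 0, from −0.24 for *Col5a3* to 0.09 for *Col1a2* among the 6 most abundant fibrillar chains, while the widest values and bars belong to chains with few counts such as *Col22a1* (1.64) and *Col17a1* (−1.28).

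The fibrillar collagens were led by the 3 genes that encode types I and III. *Col3a1*, whose product forms the thin type III fibers of soft tissue, was present at 10828, 7605, and 10363 CPM in *Ebf2*+/+ mice and 10393, 9891, and 10028 CPM in *Ebf2* E165X/+ mice. *Ebf2*+/+ mouse 2 lay below the other 5 mice, which were close to each other, and the genotypes overlapped. The log2 fold change of *Col3a1* was 0.07 (SE 0.26, edgeR adjusted *P* = 0.952). The SE depended on the tool and was 0.145 with DESeq2 and 0.128 with limma-voom.

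*Col1a1* encodes the α1 chain of type I collagen, the main protein of fibrous scar. Its level was 5280, 3786, and 4961 CPM in *Ebf2*+/+ mice and 5095, 4841, and 4834 CPM in *Ebf2* E165X/+ mice. *Col1a2*, which encodes the partner α2 chain, was at 4847, 3417, and 4647 CPM and at 4654, 4453, and 4644 CPM. Both genes repeated the pattern of *Col3a1*, with *Ebf2*+/+ mouse 2 lowest, mouse 1 of that genotype highest, and a narrower spread among the heterozygous mice. The log2 fold changes were 0.07 (SE 0.21, adjusted *P* = 0.94) for *Col1a1* and 0.09 (SE 0.22, adjusted *P* = 0.924) for *Col1a2*. Without *Ebf2*+/+ mouse 2 they were −0.07 and −0.06, and that of *Col3a1* was −0.08.

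Type V collagen joins type I fibers and limits their thickness. *Col5a1* was at 787, 558, and 617 CPM in *Ebf2*+/+ mice and at 679, 655, and 660.3 CPM in *Ebf2* E165X/+ mice (log2 fold change 0.02, SE 0.15, edgeR adjusted *P* = 0.981). *Col5a2* was at 557, 411, and 502 CPM and at 546, 530, and 491 CPM (0.09, SE 0.14, adjusted *P* = 0.872). Each heterozygous mouse lay inside the range of the wild-type mice for both chains. Without *Ebf2*+/+ mouse 2 the log2 fold changes were −0.09 for *Col5a1* and −0.03 for *Col5a2*. *Col5a3*, the third type V chain, was at 849, 577, and 551 CPM and at 631, 557, and 489 CPM, with *Ebf2*+/+ mouse 1 far above the other 5 mice. Its log2 fold change was −0.24 (SE 0.19, adjusted *P* = 0.783), −0.03 without that mouse, and −0.37 without *Ebf2*+/+ mouse 3.

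The remaining 5 fibrillar chains were low. *Col27a1*, found in cartilage and other developing tissue, averaged 22.5 ± 1.67 CPM in *Ebf2*+/+ and 22.1 ± 2.87 CPM in *Ebf2* E165X/+ mice (SD, n = 3). *Col11a1* and *Col11a2* encode chains of type XI, a partner of type II in cartilage, and had log2 fold changes of −0.17 and 0.28, and of −0.09 and 0.14 without heterozygous mouse 3. *Col24a1*, known from bone, was at 0.574, 0.531, and 0.516 CPM in *Ebf2*+/+ mice and 0.398, 0.753, and 1.47 CPM in *Ebf2* E165X/+ mice. Heterozygous mouse 3 was thus the highest and heterozygous mouse 1 the lowest of all, and the log2 fold change of 0.69 was 0.09 without mouse 3. *Col2a1*, the main cartilage collagen, did not exceed 0.234 CPM in any mouse. Of the 11 fibrillar chains, 8 had a log2 fold change above 0 and 3 below, with a median of 0.07, 0 with an unadjusted *P* under 0.05, and 0 without overlap. The median was −0.07 without *Ebf2*+/+ mouse 2 and 0.16 without *Ebf2*+/+ mouse 1.

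**Figure D2:**
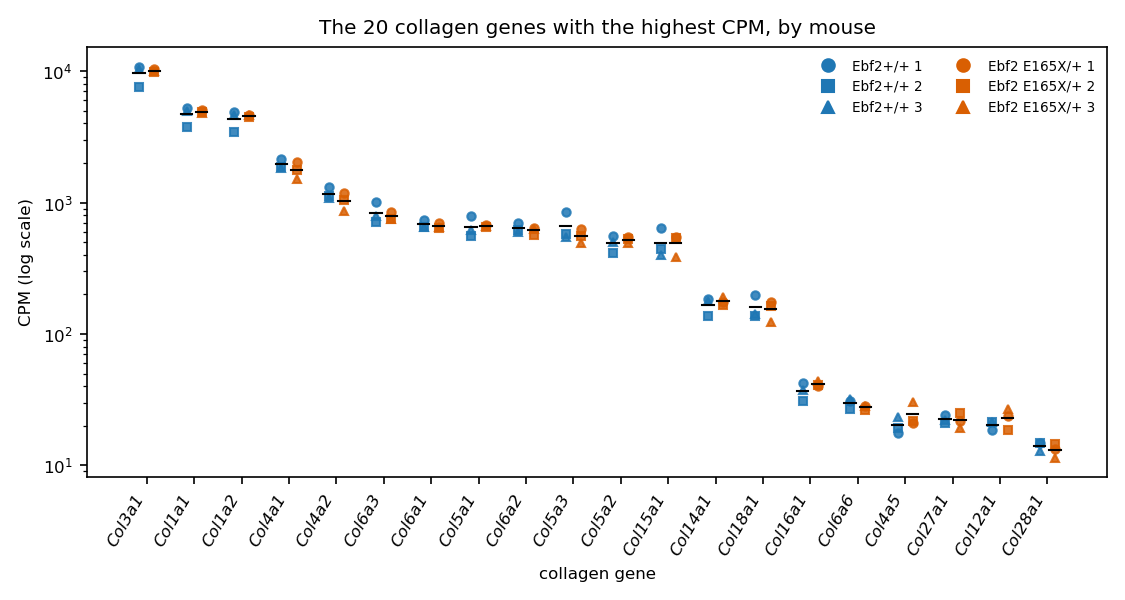
CPM of the 20 collagen genes with the highest levels (y axis, log scale), with 1 point per mouse (blue, *Ebf2*+/+; orange, *Ebf2* E165X/+; marker shape, mouse number) and a black line at the mean of 3 mice. *Ebf2*+/+ mouse 2 (blue square) is lowest for *Col3a1*, *Col1a1*, and *Col1a2*, and *Ebf2* E165X/+ mouse 3 (orange triangle) is lowest for *Col4a1* and *Col4a2*.

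Basement membrane collagen was dominated by *Col4a1* and *Col4a2*, the pair whose products form the type IV network of most tissues. *Col4a1* was at 2149, 1859, and 1839 CPM in *Ebf2*+/+ mice and at 2022, 1772, and 1511 CPM in *Ebf2* E165X/+ mice. *Col4a2* was at 1307, 1119, and 1089 CPM and at 1178, 1048, and 866 CPM. For both genes *Ebf2*+/+ mouse 1 was highest, *Ebf2* E165X/+ mouse 3 was lowest, and the genotypes overlapped. The log2 fold changes were −0.14 (SE 0.17, edgeR adjusted *P* = 0.829) and −0.18 (SE 0.16, adjusted *P* = 0.783). Without heterozygous mouse 3 they were −0.04 and −0.07, and without heterozygous mouse 1 they were −0.25 and −0.29.

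Markers of endothelial cells and adipocytes are given beside these levels. Summed over 6 endothelial markers, led by *Pecam1*, levels were 1149, 1136, and 1084 CPM in *Ebf2*+/+ mice and 1037, 1064, and 838 CPM in *Ebf2* E165X/+ mice. All 6 had a log2 fold change below 0, with a median of −0.24. Heterozygous mouse 3 was the lowest for this sum. The sum of 8 adipocyte markers, led by the fatty acid-binding protein gene *Fabp4*, was 12137, 14010.4, and 11567 CPM and 12261, 10411, and 7948 CPM, and all 8 markers had a log2 fold change below 0. Heterozygous mouse 3 was again the lowest, but the highest mouse was *Ebf2*+/+ mouse 2 and not mouse 1 as for the type IV pair. 0 of these 14 genes passed the test, and the part of cell composition in the type IV levels was not tested.

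The minor type IV chains, which replace α1 and α2 in kidney, eye, and other specialized membranes, were far lower in counts. *Col4a5* was at 17.8, 19.2, and 23.5 CPM in *Ebf2*+/+ mice and at 20.9, 22.0, and 30.5 CPM in *Ebf2* E165X/+ mice (log2 fold change 0.28, SE 0.17, edgeR adjusted *P* = 0.783). *Col4a6* was at 1.01, 1.04, and 1.122 CPM and at 1.115, 1.39, and 2.60 CPM (0.69, SE 0.33, adjusted *P* = 0.783). For both genes the genotypes overlapped and heterozygous mouse 3 was the highest, and without it the log2 fold changes were 0.09 and 0.25. *Col4a3* and *Col4a4*, the pair that shares the start region shown above, had log2 fold changes of 0.23 (SE 0.19) and 0.09 (SE 0.2), and of 0.09 and −0.11 without heterozygous mouse 3. The median over the 6 type IV chains was 0.16, and 0.02 without that mouse. With all mice 4 chains lay above 0 and 2 below, and the 2 below were those with nearly all of the counts.

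Type VI collagen, a beaded filament that anchors adipocytes in their matrix, overlapped in level between the genotypes. *Col6a1* was at 739, 655, and 656 CPM in *Ebf2*+/+ mice and at 701, 637, and 648 CPM in *Ebf2* E165X/+ mice (log2 fold change −0.05, SE 0.12, edgeR adjusted *P* = 0.927). *Col6a2* was at 699, 619, and 594 CPM and at 646, 569, and 628 CPM (−0.05, SE 0.12, adjusted *P* = 0.923). *Col6a3*, whose C-terminal fragment is the signaling peptide endotrophin, was at 1006, 711, and 787 CPM and at 844, 754, and 753 CPM (−0.09, SE 0.16, adjusted *P* = 0.898). The SEs of *Col6a1* and *Col6a2* were smaller than those of the type I, III, and V chains, and the genotypes overlapped for all 3 genes.

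*Col6a4*, *Col6a5*, and *Col6a6* are neighbors on chromosome 9 and encode alternative chains that can take the place of the α3 chain. They were at 10.4 ± 2.13, 8.39 ± 1.67, and 30.0 ± 2.63 CPM in *Ebf2*+/+ and 12.9 ± 2.85, 9.55 ± 2.04, and 27.6 ± 1.02 CPM in *Ebf2* E165X/+ mice (SD, n = 3). Their log2 fold changes were 0.3, 0.19, and −0.12. With 1 mouse left out, that of *Col6a4* ran from 0.12 (heterozygous mouse 2) to 0.46 (*Ebf2*+/+ mouse 2), that of *Col6a5* from 0.03 (*Ebf2*+/+ mouse 1) to 0.35 (heterozygous mouse 3), and that of *Col6a6* from −0.2 (*Ebf2*+/+ mouse 2) to −0.09 (heterozygous mouse 2). In none of the 6 type VI genes were the genotypes apart, and the median log2 fold change of the class was −0.05.

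*Col15a1* and *Col18a1* encode multiplexins, basement membrane-associated collagens that carry heparan or chondroitin sulfate chains. *Col18a1* also yields endostatin, an inhibitor of vessel growth. *Col15a1* was at 638, 444, and 402 CPM in *Ebf2*+/+ mice and at 550, 541, and 387 CPM in *Ebf2* E165X/+ mice (log2 fold change −0.0062, SE 0.21, edgeR adjusted *P* = 0.995). *Col18a1* was at 198, 137, and 142 CPM and at 176, 164, and 123 CPM (−0.04, SE 0.18, adjusted *P* = 0.962). Mouse 1 of the wild type was highest and mouse 3 of the heterozygotes lowest for both, as for *Col4a1*. Without heterozygous mouse 3 the log2 fold changes were 0.14 and 0.09.

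Collagens that decorate fibrils, the FACIT class, were led by *Col14a1* and *Col16a1*. *Col14a1* was at 185, 138, and 179 CPM in *Ebf2*+/+ mice and at 175, 167, and 192 CPM in *Ebf2* E165X/+ mice (log2 fold change 0.09, SE 0.13). Without *Ebf2*+/+ mouse 2 its log2 fold change was −0.04. *Col16a1* was at 42.2, 30.9, and 37.3 CPM and at 40.2, 40.9, and 43.9 CPM (0.18, SE 0.11), and *Col12a1* at 18.6, 21.3, and 21.4 CPM and at 23.8, 18.5, and 27.0 CPM (0.18, SE 0.14). The genotypes overlapped for all 3, and 8 of the 9 FACIT genes had a log2 fold change above 0, with a median of 0.18. The log2 fold change of *Col12a1* was 0.05 without heterozygous mouse 3 and 0.32 without heterozygous mouse 2. That of *Col16a1* was 0.05 without *Ebf2*+/+ mouse 2 and 0.27 without *Ebf2*+/+ mouse 1. *Col28a1*, a collagen known from peripheral nerve, had a log2 fold change of −0.11 (SE 0.12), and −0.02 without heterozygous mouse 3.

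*Col23a1*, a transmembrane collagen, was at 8.72, 8.60, and 8.84 CPM in *Ebf2*+/+ mice and at 9.999, 13.3, and 10.1 CPM in *Ebf2* E165X/+ mice. The wild-type mice were within a narrow range and every heterozygous mouse lay above them, with mouse 2 the highest. The log2 fold change was 0.35 (SE 0.14), with an adjusted *P* of 0.783 by edgeR and 0.414 by DESeq2, and it ranged from 0.2 to 0.43 when each mouse was left out in turn. *Col9a2* and *Col9a3*, chains of the cartilage FACIT type IX, were also apart between the genotypes but at low levels. *Col9a2* was at 0.524, 0.617, and 0.476 CPM and at 0.631, 0.737, and 0.710 CPM, and *Col9a3* was at 0.941, 0.863, and 1.07 CPM and at 1.08, 1.19, and 1.48 CPM. Their log2 fold changes were 0.36 (SE 0.23) and 0.39 (SE 0.22), each with an edgeR adjusted *P* of 0.783. The gap between the genotypes was narrow for both. For *Col9a2* the counting error (11.6%) exceeded the spread among mice (10.9%). *Col9a1*, the third type IX chain, had a log2 fold change of −0.22 (SE 0.74) with overlap, at no more than 11 counts per library. An exon of *Col9a3* shares 234 bases with *Tcfl5* on the opposite strand, and whether counting used the strand was not given in the sources used here.

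Several low chains were highest in the library with the most muscle RNA. *Col22a1* encodes a collagen of the junction between muscle and tendon. Its level was 0.333, 0.968, and 0.783 CPM in *Ebf2*+/+ mice and 0.942, 0.697, and 4.86 CPM in *Ebf2* E165X/+ mice. Heterozygous mouse 3 was highest, 5.03 times as high as the next library, and *Ebf2*+/+ mouse 1 was lowest, at 0.478 times the next. Its log2 fold change was 1.64 (SE 0.75, edgeR adjusted *P* = 0.783) and 0.24 without heterozygous mouse 3.

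*Col8a1* and *Col8a2* encode short-chain network collagens known from vessel walls and the cornea. *Col8a2* was at 0.741, 0.626, and 0.847 CPM in *Ebf2*+/+ mice and at 1.13, 0.833, and 3.09 CPM in *Ebf2* E165X/+ mice. *Col8a1* was at 9.59, 11.1, and 12.5 CPM and at 11.5, 11.8, and 24.998 CPM. In both genes heterozygous mouse 3 was well above all others, 2.73 and 1.99 times as high as the next library, while the other heterozygous mice lay inside the wild-type range for *Col8a1*. For *Col8a2*, heterozygous mouse 1 lay above that range and mouse 2 inside it. The log2 fold changes were 1.19 (SE 0.47) for *Col8a2* and 0.54 (SE 0.3) for *Col8a1*, each with an edgeR adjusted *P* of 0.783. Without mouse 3 they were 0.41 and 0.07.

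The 8 skeletal muscle markers summed to 1639, 6809, and 2551 CPM in *Ebf2*+/+ mice and to 2793, 659, and 38572 CPM in *Ebf2* E165X/+ mice. The mouse with the second highest sum was *Ebf2*+/+ mouse 2, which was also second for *Col22a1* but lowest for *Col8a2*. In the same heterozygous mouse 3, *Acta2*, a smooth muscle actin of the mural marker list, was at 265 CPM against 113 to 152 CPM in the others, whereas *Myh11*, a defining smooth muscle myosin, was at 109.1 CPM against 102 to 127 CPM. The sum of the 6 mural markers, led by *Rgs5*, was 1019 CPM in that mouse and 817 to 952 CPM in the others. Of the 44 collagen genes, 19 had their highest level in this library and 16 in *Ebf2*+/+ mouse 1. The latter included the abundant chains *Col3a1*, *Col1a1*, *Col1a2*, *Col4a1*, and *Col4a2*. The share of all genes that were highest in either library was not counted. The part of muscle tissue in these collagen levels was not tested.

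*Col17a1* varied widely among mice of the same genotype. It encodes a transmembrane collagen of the hemidesmosome, the structure that fastens epithelial cells to the basement membrane. Its level was 11.4, 1.16, and 4.92 CPM in *Ebf2*+/+ mice and 4.41, 1.53, and 1.26 CPM in *Ebf2* E165X/+ mice. *Ebf2*+/+ mice 1 and 3 and *Ebf2* E165X/+ mouse 1 were high and the other 3 mice low, which divides both genotypes. The log2 fold change was −1.28 (SE 0.78, edgeR adjusted *P* = 0.783). It was −0.35 without *Ebf2*+/+ mouse 1 and −2.06 without *Ebf2* E165X/+ mouse 1.

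The basal keratin gene *Krt5*, the most abundant of 6 epithelial markers, was at 50.3, 0.0474, and 22.2 CPM in *Ebf2*+/+ mice and at 17.0, 0.224, and 0.00781 CPM in *Ebf2* E165X/+ mice. *Krt14*, its partner keratin, was at 17.0, 0.114, and 9.87 CPM and at 8.23, 0.048, and 1.23 CPM. The same 3 mice were high as for *Col17a1*, and also for *Cdh1* (E-cadherin) at 7.44, 2.45, and 6.495 CPM and at 5.29, 2.38, and 2.63 CPM. *Krt8* and *Krt18*, keratins of simple epithelium, were instead lowest in *Ebf2*+/+ mouse 1 and highest in heterozygous mouse 3. *Krt8* was at 0.0749, 0.218, and 0.226 CPM and at 0.302, 0.120, and 2.25 CPM, and the log2 fold changes of *Krt8* and *Krt18* were 2.36 (SE 0.997) and 1.27 (SE 0.79). The sum of the 6 epithelial markers was 76.9, 4.37, and 40.9 CPM and 32.97, 3.93, and 8.44 CPM, and their part in *Col17a1* was not tested.

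**Figure D3:**
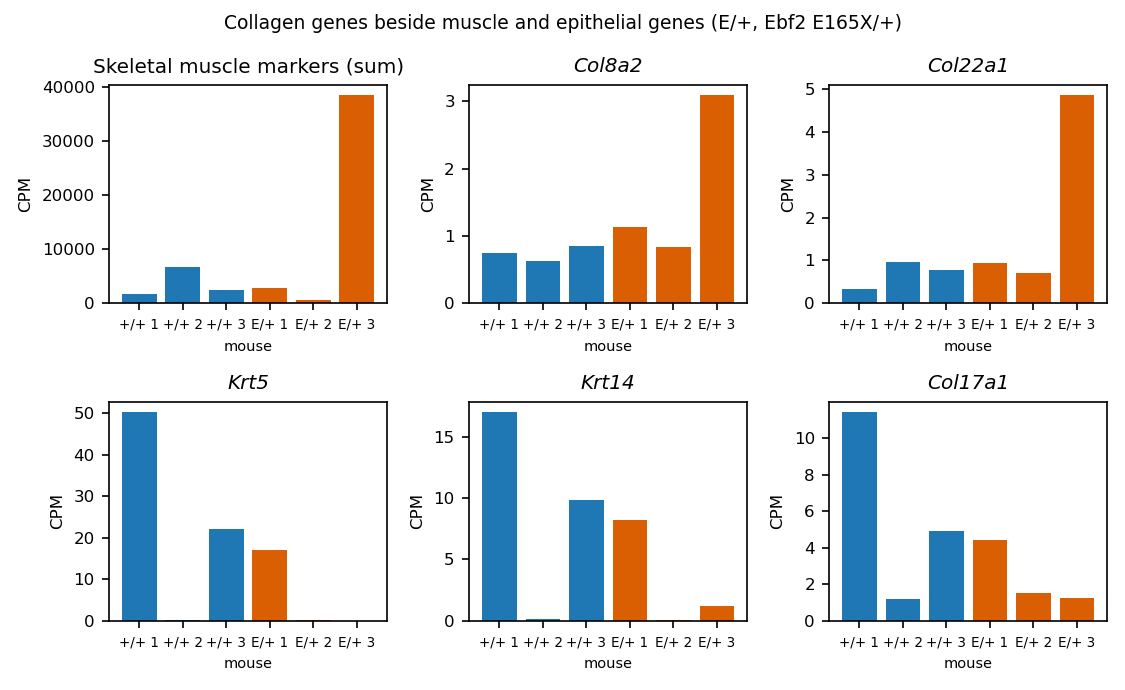
CPM by mouse (y axes, linear from 0; x axes, mice 1 to 3 of each genotype) of the summed skeletal muscle markers with *Col8a2* and *Col22a1* in the upper row, and of *Krt5*, *Krt14*, and *Col17a1* in the lower row. In the upper row *Ebf2* E165X/+ mouse 3 exceeds every other mouse, and in the lower row *Ebf2*+/+ mice 1 and 3 and *Ebf2* E165X/+ mouse 1 are the highest.

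Bone and cartilage RNA was low. Of 6 such markers, *Sox9*, the most abundant, did not exceed 2.11 CPM, and *Ibsp* and *Bglap*, which define bone, were at 0 counts in at least 1 library. *Cnmd*, which encodes the cartilage protein chondromodulin, was at 0.258, 0.323, and 0.331 CPM in *Ebf2*+/+ mice and at 0.467, 0.649, and 0.429 CPM in *Ebf2* E165X/+ mice (log2 fold change 0.76, SE 0.27, edgeR adjusted *P* = 0.783). *Cnmd* lies on chromosome 14, 12.2 megabases from *Ebf2*. Its levels were apart between the genotypes, as were those of the cartilage chains *Col9a2* and *Col9a3* but not of *Col9a1*. Those of *Bglap* were also apart, at no more than 4 counts per library. *Acan* (aggrecan) and *Sox9* had log2 fold changes of −0.42 (SE 0.53) and −0.56 (SE 0.29) with overlap, and the median of the 6 markers was −0.09. The part of cartilage in the *Col9a2* and *Col9a3* levels was not tested. The lists of macrophage and lymphocyte markers, led by *Mrc1* and *Ms4a1*, had median log2 fold changes of 0.1 and 0.28. The 8 fibroblast and progenitor markers, led by *Dcn*, summed to 2141, 1719, and 2086 CPM in *Ebf2*+/+ mice and to 2101, 2266, and 2302 CPM in *Ebf2* E165X/+ mice. *Ebf2*+/+ mouse 2, the mouse with the least fibrillar collagen RNA, was also the lowest for this sum. The median log2 fold change of these 8 markers was 0.14, and their part in the collagen levels was not tested.

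The order of the chains was compared on a scale of CPM per kilobase of exon, over all 6 mice. *Col3a1* was highest at 1004 ± 117 (SD, n = 6 mice), followed by *Col1a1* at 731 ± 79.9 and *Col1a2* at 358 ± 41.7. By the longest transcript in place of all exons, *Col1a2* (831) lay above *Col1a1* (809), and *Col6a2*, rank 10 by all exons, moved to rank 7 (127). *Col4a1* at 249 ± 29.3, *Col4a2* at 166 ± 22.1, and *Col6a1* at 154 ± 8.94 came next, and the latter 2 were within their spread of each other. *Col5a3* (89.5 ± 18.5), *Col15a1* (77.8 ± 15.5), *Col5a1* (77.7 ± 8.93), *Col6a2* (75.2 ± 5.36), and *Col6a3* (67.6 ± 8.89) overlapped over mice. Within a mouse, *Col5a3* and *Col5a1* each lay above *Col6a3* in 6 of 6 mice, the latter not by the longest transcript (78.4 and 80.1), and every other pair of these 5 changed order in at least 1 mouse. The study's methods name 3′ sequencing and the labels a kit of another maker. If reads came from 3′ ends, division by length would not apply, and the order by CPM alone would place *Col6a3* above *Col6a1* and *Col6a2*.

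Ratios between partner chains were compared in the same libraries, because they do not depend on the scaling of libraries. The count ratio of *Col1a1* to *Col1a2* was 1.09, 1.11, and 1.07 in *Ebf2*+/+ mice and 1.09, 1.09, and 1.04 in *Ebf2* E165X/+ mice. That of *Col3a1* to *Col1a1* was 2.05, 2.01, and 2.09 and 2.04, 2.04, and 2.07. The proportions of the 3 leading fibrillar genes thus varied little from mouse to mouse, also in the wild-type mouse in which all 3 were low. Two-sided exact permutation tests gave *P* = 0.6 and *P* = 1 (n = 3 mice per genotype, for which the smallest possible *P* is 0.1), each 1 after adjustment over the 7 ratios tested.

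The ratio of *Col4a1* to *Col4a2* was 1.65, 1.66, and 1.69 in *Ebf2*+/+ mice and 1.72, 1.69, and 1.75 in *Ebf2* E165X/+ mice. Every heterozygous mouse lay above every wild-type mouse, by a log2 difference of 0.04 (exact permutation *P* = 0.1, the smallest these mice allow, and 0.7 after adjustment over 7 ratios). This was the only ratio of the 7 without overlap, but *Ebf2*+/+ mouse 3 (1.690) and heterozygous mouse 2 (1.692) were nearly the same. The counting error expected from the mean count was 0.21% for *Col4a1* and 0.28% for *Col4a2*. The ratio of *Col1a1* to *Col4a1*, fibrillar to basement membrane collagen, was 2.46, 2.04, and 2.697 and 2.52, 2.73, and 3.20. Heterozygous mouse 3 was highest and *Ebf2*+/+ mouse 2 lowest, the genotypes overlapped, and the log2 difference was 0.24 (exact permutation *P* = 0.2, adjusted 0.7). It was 0.12 without *Ebf2*+/+ mouse 2 and 0.14 without heterozygous mouse 3. The ratios of *Col6a1* and *Col6a3* to *Col6a2* and of *Col5a1* to *Col5a2* had log2 differences of 0.0058, −0.03, and −0.06, with overlap in each.

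**Figure D4:**
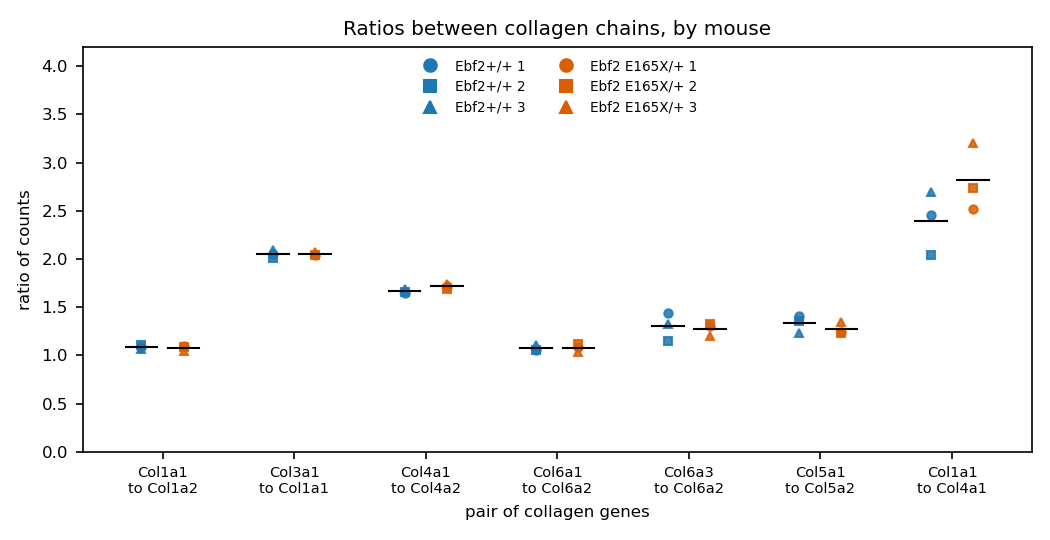
Ratio of counts between pairs of collagen genes (y axis, linear from 0), with 1 point per mouse (blue, *Ebf2*+/+; orange, *Ebf2* E165X/+; marker shape, mouse number) and a black line at the mean of 3 mice. The ratio of *Col3a1* to *Col1a1* stays between 2.01 and 2.09 in all mice, while that of *Col1a1* to *Col4a1* runs from 2.04 to 3.20.

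Collagen chains need enzymes and chaperones before they leave the cell and others afterward, and 63 such genes in 6 lists were examined in the same test. 0 of the 63 passed it, 1 had an unadjusted *P* under 0.05 in the higher direction, and 0 did in the lower direction, beside 1.68% and 3.09% of all genes tested. A log2 fold change above 0 was seen for 48 of the 63 (47 with DESeq2), beside 52.1% of all genes tested. The median of the 63 was 0.11, compared with 0.01 over all genes. Levels of 4 of the 63 were higher and of 3 lower without overlap, beside 6.08% and 6.58% of genes at large. Without *Ebf2*+/+ mouse 2, 32 of the 63 lay above 0 and the median was 0.01.

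The gene with the unadjusted *P* under 0.05 was *Lox*, lysyl oxidase, which starts the covalent cross-linking of collagen and elastin. *Lox* was at 121, 108, and 123 CPM in *Ebf2*+/+ mice and at 141, 126, and 156 CPM in *Ebf2* E165X/+ mice. Each heterozygous mouse lay above each wild-type mouse, with mouse 3 highest. The log2 fold change was 0.27 (SE 0.1, edgeR adjusted *P* = 0.783), and 0.19 without mouse 3. The other 4 cross-linking genes, *Loxl1* to *Loxl4*, had log2 fold changes from 0.02 to 0.23 with overlap in each. *Loxl2* and the propeptidase gene *Bmp1* lie on chromosome 14, 2.18 and 3.04 megabases from *Ebf2*, with log2 fold changes of 0.12 and 0.11.

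Of the 18 genes for hydroxylation and folding, 11 had a log2 fold change above 0, with a median of 0.08. *Serpinh1*, which encodes the collagen chaperone HSP47 and was the most abundant of them, was at 884, 608, and 596 CPM in *Ebf2*+/+ mice and at 623, 703, and 625 CPM in *Ebf2* E165X/+ mice (−0.1, SE 0.18). The heterozygous mice lay inside the wild-type range. The log2 fold change of *Serpinh1* was 0.097 without *Ebf2*+/+ mouse 1 and −0.22 without *Ebf2*+/+ mouse 3. *P3h3*, a prolyl 3-hydroxylase family member, and *Colgalt1*, a collagen galactosyltransferase, were higher without overlap, with log2 fold changes of 0.15 (SE 0.097) and 0.08 (SE 0.07). Of the 8 secretion genes, *Creb3l1*, a transcription factor for secretory genes, and *Mia2*, an export factor of the endoplasmic reticulum, were lower without overlap, with log2 fold changes of −0.12 (SE 0.072) and −0.09 (SE 0.068), and the median of the list was −0.0059.

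All 8 genes for removal of propeptides had a log2 fold change above 0, beside 52.1% of all genes tested. Their median was 0.12, although 0 had an unadjusted *P* under 0.05. *Adamts2*, the main N-propeptidase of fibrillar procollagen, was at 244, 177, and 190.4 CPM in *Ebf2*+/+ mice and at 231, 256, and 233 CPM in *Ebf2* E165X/+ mice (log2 fold change 0.24, SE 0.13, which was 0.13 without *Ebf2*+/+ mouse 2 and 0.37 without *Ebf2*+/+ mouse 1). *Ebf2*+/+ mouse 1 overlapped with the heterozygous mice and the other wild-type mice lay below. Without *Ebf2*+/+ mouse 2, 5 of the 8 lay above 0.

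Of the 14 fibril-binding proteoglycans and glycoproteins, 13 had a log2 fold change above 0, beside 52.1% of all genes tested, and 9 of 14 did without *Ebf2*+/+ mouse 2. The 13 include *Sparc* at 0.0004, which lay below 0 with DESeq2, where 12 of 14 lay above 0. The median of the 14 was 0.2 with all mice. Decorin, encoded by *Dcn*, a small proteoglycan that spaces collagen fibrils, was at 787, 679.7, and 814 CPM in *Ebf2*+/+ mice and at 812, 910.3, and 982 CPM in *Ebf2* E165X/+ mice (0.25, SE 0.14, edgeR adjusted *P* = 0.783). *Dcn* and *Lum*, which encodes lumican, also belong to the fibroblast list above. *Bgn*, which encodes biglycan, was at 304, 264, and 309 CPM and at 338, 308, and 350.5 CPM (0.19, SE 0.11, adjusted *P* = 0.783). For both genes the genotypes overlapped in a small range and heterozygous mouse 3 was highest, and without *Ebf2*+/+ mouse 2 the log2 fold changes were 0.16 and 0.11.

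*Sparc*, whose product binds collagen outside the cell, was the most abundant of the 63 genes at 4309, 4100, and 4411 CPM in *Ebf2*+/+ mice and 4287, 4220, and 4317 CPM in *Ebf2* E165X/+ mice. It was nearly level over all mice. *Fn1*, which encodes fibronectin, a scaffold for new fibrils, was at 1056, 722, and 924 CPM and at 971, 986, and 875 CPM (log2 fold change 0.07, SE 0.17), with *Ebf2*+/+ mouse 2 lowest as for the fibrillar collagens.

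Among the 10 receptors and uptake genes, *Itga1*, the α subunit of the collagen receptor integrin α1β1, was at 139, 145, and 143 CPM in *Ebf2*+/+ mice and at 125, 134, and 110 CPM in *Ebf2* E165X/+ mice. All heterozygous mice lay below the wild-type mice, with mouse 3 lowest, and the log2 fold change was −0.21 (SE 0.091, edgeR adjusted *P* = 0.783) and −0.14 without that mouse. *Itga2*, the α subunit of the collagen receptor integrin α2β1, was higher without overlap, at 9.48, 8.57, and 9.11 CPM and at 9.73, 9.90, and 10.5 CPM (0.15, SE 0.1, adjusted *P* = 0.783). *Itgb1*, the β subunit of both and the most abundant of the list, had a log2 fold change of −0.02 (SE 0.1). Of the 10 genes, 7 had a log2 fold change above 0, and the median of the list was 0.06.

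**Figure D5:**
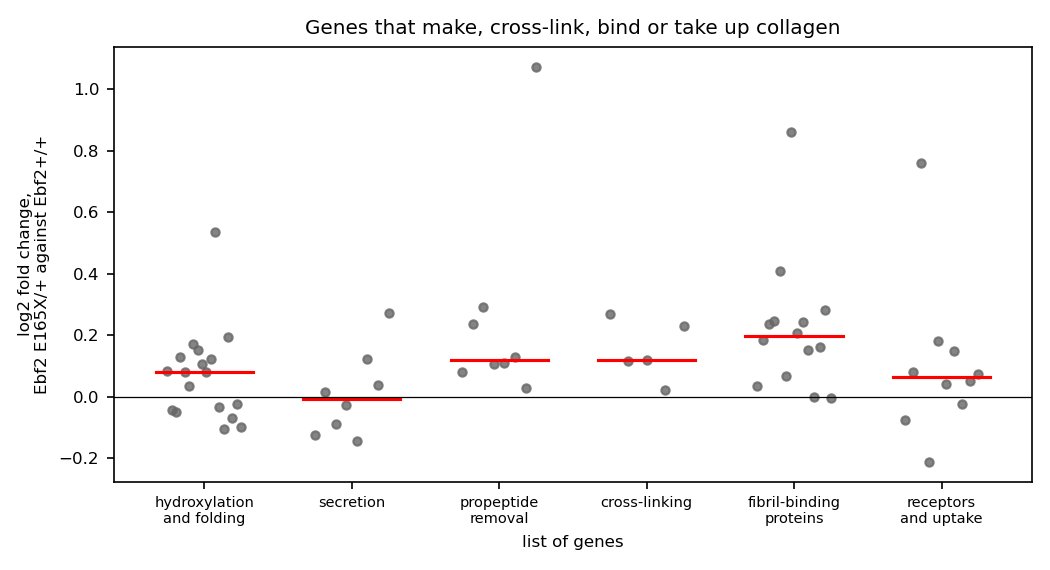
Log2 fold change in *Ebf2* E165X/+ against *Ebf2*+/+ mice (y axis) of 63 genes that make, cross-link, bind, or take up collagen, in 6 lists (x axis), with 1 point per gene and a red line at the median of the list. The medians run from −0.0059 for secretion to 0.2 for the fibril-binding proteins.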

How the data were processed

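RNA-seq of IWAT from 6 mice was examined. The authors deposited expected counts, which are estimated fragments per gene not scaled for library size, and all 332946 values were whole. Per the labels, the tools were cutadapt 4.8, FastQC 0.11.8, STAR 2.7.8a, RSEM 1.3.3, and MultiQC 1.20, with build GRCm38. The labels and the study's methods name library kits of different makers. Libraries were distinct in counts (chi-square per degree of freedom of at least 78.4 between any 2).

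Counts were analyzed with edgeR 4.0.16 in R 4.3.3 (TMM, quasi-likelihood test, genes with a minimum of 1 count in some library, Benjamini-Hochberg adjustment over 32664 genes), and genotype was the only term. DESeq2 1.42.0 and limma-voom (limma 3.58.1) were alternatives, and the tests were tried on simulated data. Standard errors of edgeR came from the fitted dispersions, scaled by each gene's quasi-likelihood variance as moderated across genes. Ratios were compared with exact permutation tests in scipy 1.17.1. Gene coordinates came from GENCODE M21. Total counts ran from 106820505 to 135039488. The labels call the libraries separate mice without naming litters.

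Genes named were every fibrillar, type IV, type VI, and multiplexin chain, the 6 other chains with the most counts, the 4 chains with the smallest *P* in each direction, *Ebf2*, 6 pathway genes by *P* and 4 by counts, and the most abundant and any undetected gene of each marker list. 1 marker list is not reported here. Other genes were chosen after their values were seen. The members and lists were chosen with earlier results of these data known.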

Additional observations from a re-analysis of the deposited data

How the results depend on the processing

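0 collagen genes were called in edgeR, DESeq2, limma-voom, or any of the other fits, including each with 1 mouse left out. Collagen genes higher at an unadjusted *P* under 0.05 numbered 2 in edgeR and 1 with limma-voom, filterByExpr, or at least 10 counts in every library, and with 1 mouse left out they ranged from 0 (*Ebf2*+/+ mouse 2 or 3) to 6 (*Ebf2* E165X/+ mouse 1, where 1.89% of all genes did) higher and 0 to 1 lower. Pathway genes at an unadjusted *P* under 0.05 were 1 higher and 0 lower in edgeR, 2 higher and 1 lower with DESeq2 (with or without independent filtering) and limma-voom, and 1 lower with DESeq2 size factors, filterByExpr, at least 10 counts in every library, or mitochondrially encoded genes left out, and with 1 mouse left out they ranged from 0 to 6 (*Ebf2*+/+ mouse 1, where 1.02% of all genes did) higher and 0 to 1 lower. Leaving out 1 mouse, the median log2 fold change ranged from −0.0278 to 0.154 over all collagen genes, from −0.0687 to 0.158 over fibrillar chains, from 0.0243 to 0.252 over type IV chains, and from 0.0724 to 0.188 over other types. The difference in the collagen share of counts ranged from −0.054 to 0.305 percentage points, and collagen genes without overlap ranged from 4 to 7 higher and 0 to 4 lower, beside 10.2% to 13.7% and 9.92% to 12.4% of genes at large when 2 mice are set against 3. The log2 ratio differences ranged from −0.0326 to 0.00382 for *Col1a1* to *Col1a2*, from −0.0121 to 0.0159 for *Col3a1* to *Col1a1*, from −0.0207 to 0.0373 for *Col6a1* to *Col6a2*, from −0.114 to 0.0493 for *Col6a3* to *Col6a2*, from −0.117 to −0.0179 for *Col5a1* to *Col5a2*, and from 0.123 to 0.325 for *Col1a1* to *Col4a1*.

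Of 34 named collagen genes, 22 kept the sign of their log2 fold change in all fits, and 12 did not with 1 mouse left out. The ranges were −0.0806 to 0.156 for *Col3a1*, −0.0687 to 0.158 for *Col1a1*, −0.0626 to 0.172 for *Col1a2*, −0.207 to 0.052 for *Col6a3*, −0.0913 to 0.164 for *Col5a1*, −0.124 to 0.00353 for *Col6a2*, −0.0341 to 0.179 for *Col5a2*, −0.159 to 0.204 for *Col15a1*, −0.154 to 0.13 for *Col18a1*, −0.125 to 0.0617 for *Col27a1*, −0.11 to 0.195 for *Col4a4*, and −0.0442 to 0.152 for *Col14a1*. For pathway genes they were −0.0404 to 0.00961 for *Sparc*, −0.0816 to 0.184 for *Fn1*, and −0.22 to 0.097 for *Serpinh1*. *Col15a1* also became 0.0034 with limma-voom. *Sparc*, at 0.0004 in edgeR, became −0.0081 with DESeq2 or its size factors, −0.0021 with filterByExpr, −0.0198 with at least 10 counts in every library, and −0.0149 without mitochondrially encoded genes.

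Same-numbered mice of the 2 genotypes were not paired, as their deviations correlated at 0.15, −0.28, and −0.16 over 18905 genes. A fit with a replicate block gave 0 collagen genes called, and 2 higher and 0 lower at an unadjusted *P* under 0.05. These 2 were *Col4a5* and *Col8a2*, and *Col23a1* was not among them. The same fit gave 2 pathway genes higher at that limit, a median log2 fold change of 0.1 over the collagen genes, and 0.0048 for *Col15a1*. For the ratio of *Col4a1* to *Col4a2*, an exact sign-flip test over the numbered pairs (replicate block) gave *P* = 0.25, the smallest 3 pairs allow, and the differences themselves cannot change with such a block. By length of the longest transcript, 9 of the 10 highest chains per kilobase were shared, with *Col1a1* and *Col1a2* in the opposite order and *Col6a2* at rank 7 in place of 10. The adjusted *P* of *Ebf2* was 0.0423 with edgeR without *Ebf2* E165X/+ mouse 3.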

Other observations

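Genes that encode other proteins with a collagen-like triple helix were listed after the data had been opened, as 16 secreted or membrane proteins outside the collagen family. 0 of the 16 passed edgeR's test at an adjusted *P* under 0.05. *Scara3*, a scavenger receptor-like protein, was at 45.7, 35.2, and 44.1 CPM in *Ebf2*+/+ mice and at 53.9, 54.4, and 54.5 CPM in *Ebf2* E165X/+ mice (log2 fold change 0.38, SE 0.1, edgeR adjusted *P* = 0.783). The heterozygous mice lay close together and above all wild-type mice. *Scara3* (chr14:65919394-65953935, minus strand, GRCm38) lies 1.28 megabases from *Ebf2*, on the chromosome of the edited allele, and the founders were made in hybrid zygotes, so an effect of the variant and one of linked sequence cannot be told apart. *Scara5*, 1.47 megabases from *Ebf2*, had a log2 fold change of −0.02 with overlap. *Colec12*, a collectin, was at 49.5, 46.5, and 49.7 CPM and at 53.3, 54.3, and 57.8 CPM (0.18, SE 0.067, adjusted *P* = 0.783), also without overlap.

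*Adipoq*, which encodes the adipocyte hormone adiponectin, was at 1190.4, 1303, and 1199 CPM in *Ebf2*+/+ mice and at 1172, 1054, and 820 CPM in *Ebf2* E165X/+ mice (−0.28, SE 0.17, edgeR adjusted *P* = 0.783). Each heterozygous mouse lay below each wild-type mouse, and mouse 3, which carried the most muscle RNA, was the lowest. The complement genes *C1qa*, *C1qb*, and *C1qc*, products of macrophages, had log2 fold changes of 0.16, 0.18, and 0.09 with overlap in each.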
